A study of Homo sapiens with 2 samples.

Results

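The 797 PROX1 peaks listed on chromosome 4 are described here, out of 23450 in the whole list and beside 22119 on the other 21 autosomes. They were chosen by position, and the chromosome was picked by its low number of peaks in this same list. Its density is therefore a description with no test. So are the empty windows, empty stretches, spacings and neighbour shares, which depend on density. The same holds for the deficits by stain class, which are parts of the same low total. The study mapped where PROX1 sits on DNA in SW480R cells by ChIP-seq, the sequencing of DNA fragments pulled down with an antibody to a protein. SW480R is a subpopulation of the established human colorectal adenocarcinoma line SW480. Chromatin was fixed with formaldehyde and cut by an enzyme, DNA from 3 pulldowns with a goat anti-PROX1 antibody was pooled into 1 ChIP library, and 1 library of input chromatin served as background. With 1 ChIP and 1 input library there is no replicate spread, and no p-value is given. Each interval is an exact 95% interval (Poisson for densities, binomial for shares and ratios of densities) for counting error alone, and it treats neighbouring peaks as independent. Coordinates are those of the list, on hg18.

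PROX1 is a homeobox transcription factor that specifies lymphatic endothelium and takes part in liver and lens development, and in the colon it is known as a Wnt-responsive factor of some adenomas and carcinomas. A ChIP-seq peak is a place where DNA recovered with the antibody exceeds the input, and its height is counted in sequenced tags. Chromosomes stained with Giemsa show alternating bands: the pale (Giemsa-negative) ones are as a rule rich in genes and replicate early, and the darkest ones are AT-rich, poor in genes and replicate late. These bands are used below as an annotation that played no part in the choice of the peaks.

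Chromosome 4 held 4.17 PROX1 peaks per Mb (interval 3.88 to 4.47), against 8.26 on the other autosomes pooled. Its peaks made up 3.48% of all autosomal peaks on 6.67% of the autosomal length, and their 22408 tags made up 2.58% of the autosomal tags in peaks. The ratio of the 2 densities was 0.504 (0.469 to 0.541). The next lowest autosomes were chromosome 9 with 6.17 and chromosome 13 with 6.75 peaks per Mb, and the median of the other 21 was 7.98. Assembly gaps cover little of chromosome 4, which had 187.3 Mb of sequence in 191.3 Mb, so the density moved to 4.26 over sequenced length, where the next lowest autosome, again 9, had 7.21. With peaks within 10 kb counted as 1 place, chromosome 4 held 3.02 places per Mb and the next lowest autosome, 13, held 3.99. Chromosome 4 is also poor in genes, at 4.03 protein-coding genes per Mb in the RefSeq table of GRCh38.p14 (770 genes, over the hg18 length). Chromosomes 13 and 18 had fewer, with 2.96 and 3.55 coding genes per Mb, at 6.75 and 7.58 peaks per Mb. The part of gene density in the peak number was not tested. In peaks per coding gene, chromosome 4 stood at 1.04, the sixth lowest of the 22 autosomes, whose other members ran from 0.351 on chromosome 19 to 2.28 on chromosome 13.

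The peaks of chromosome 4 were low in tags as well as few. Their tag counts ran from 13, the lowest of the whole list, to 186, with a median of 21 (interval 20 to 22) and quartiles of 16 and 32. The other autosomes together had a median of 26, quartiles of 17 and 45 and a highest count of 2047. Chromosome 4 had the lowest median, the lowest upper quartile and the lowest maximum of the 22 autosomes, with chromosome 8 next by median (22), 6 by upper quartile (36) and 22 by maximum (212). A count of 100 tags or more was reached by 14 of its peaks, or 1.76%, against 5.73% of peaks elsewhere. The lower ends of the distributions were close, since the first quartile was 16 on 8 other autosomes too.

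Folds over input differed less than tags. The 2 measures are tied: for the 674 of the 797 peaks at the lowest inferred input, described below, the fold is as a rule close to the tag count. The median fold was 19.05 both on chromosome 4 and on the other autosomes, and the upper quartile was 26.06 against 29.07. The highest fold on chromosome 4 was 186.46, and the median of the highest folds of the other autosomes was 187.47. Strong peaks, meaning those at 26.06 or more (2 times the lowest fold of the list), were 205 of the 797, or 25.7% (22.7 to 28.9). The share in the whole nuclear list was 30.3%, and single autosomes other than 4 ran from 26.6% on chromosome 8 to 35.3% on chromosome 20. Peaks 80 bp wide or wider made up 23.5% on chromosome 4 and 28.1% elsewhere, where the lowest autosome was 8 with 25.3%. At each width the tags were lower: the median was 21 against 25 for peaks of 40 bp, 17 against 18 for those of 60 bp and 26 against 33 for the wide ones.

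The deficit of chromosome 4 was deeper among higher peaks. Fold and tags are tied for most peaks, so the series by fold and by tags are not independent. Its density relative to the other autosomes was 0.504 for all peaks, 0.424 (0.367 to 0.487) for strong peaks, 0.323 (0.249 to 0.412) at a fold of 40 or more and 0.293 (0.204 to 0.407) at 50 or more. At a fold of 100 or more it held 3 peaks against 219 elsewhere, a ratio of 0.192 (0.0392 to 0.568). By tags the ratio fell from 0.444 (0.403 to 0.488) at 20 or more to 0.232 (0.183 to 0.290) at 50 or more and 0.154 (0.0842 to 0.260) at 100 or more. At 150 tags or more there was 1 peak on chromosome 4 and 433 elsewhere. At 200 tags or more there were 178 elsewhere and 0 on chromosome 4, which allows a ratio of up to 0.293.

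**Figure D1:**
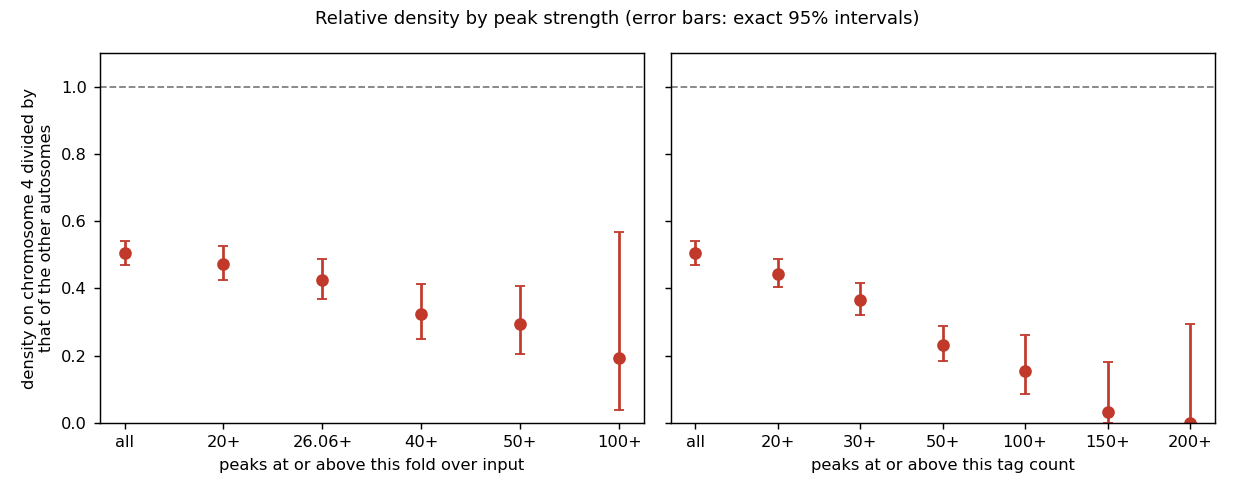
Density of PROX1 peaks on chromosome 4 divided by that of the other 21 autosomes (vertical axis, no unit) for peaks at or above a fold over input (left) or a tag count (right); points are ratios, bars exact 95% intervals, and the dashed line marks equal density. The ratio goes from 0.504 for all peaks to 0.192 at a fold of 100 and to 0 at 200 tags, with wide intervals where few peaks are left.

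Fewer of the listed chromosome 4 peaks had raised input. The input tags of each peak were inferred from its tags and fold and rounded, with 1 as the lowest value, which may stand for 0 or 1 tags. At least 2 input tags were inferred for 123 of the 797 peaks, or 15.4% (12.99 to 18.1), against 24.6% (24.1 to 25.2) on the other autosomes. The nearest autosomes were 6 with 17.0% and 18 with 20.3%, and chromosome 19 was highest with 34.6%. An input of 5 or more was inferred for 10 peaks of chromosome 4 (1.25%, 0.603 to 2.30) and for 4.75% of peaks elsewhere. Since every listed peak has a fold of at least 13.03, only peaks with more tags can show raised input. These shares are therefore tied to the lower tag counts, and the part of input in the peak number was not tested. Among the 674 chromosome 4 peaks at the lowest input, the density relative to the other autosomes was 0.566 (0.523 to 0.611), still the lowest of the 22, with 3.52 peaks per Mb against 4.78 on chromosome 9. The median tag count there was 19 on chromosome 4 and 20 elsewhere, and 5 other autosomes also had 19. Strong peaks were 27.2% of these peaks on chromosome 4 and 33.3% elsewhere.

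**Figure D2:**
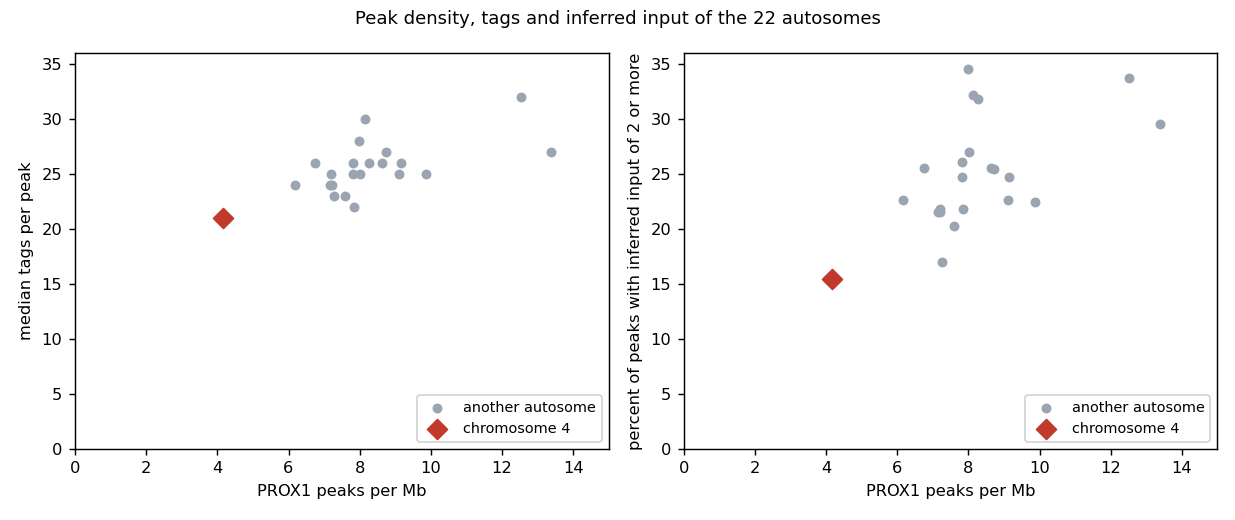
Each point is 1 of the 22 autosomes, with PROX1 peaks per Mb on the horizontal axes and the median tags per peak (left) or the percent of peaks for which at least 2 input tags were inferred (right) on the vertical axes. Chromosome 4 (red diamond) lies at 4.17 peaks per Mb with a median of 21 tags and 15.4% of peaks with raised input, the lowest value of the 22 on all 3 measures.

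Along chromosome 4 the peaks gathered in pale bands and thinned out in the darkest ones. Of the 47 bands, 7 held more than 9 peaks per Mb, and these took 31.4% of the peaks on 12.8% of the length. They were 4q31.3 (10.98 peaks per Mb), 4q21.1 and 4p14 (10.37 each), 4p16.1 (10.18), 4q21.3 (10.0), 4p16.2 (9.52) and 4q23 (9.41), and 6 of them are Giemsa-negative. At the other end, 8 of the 45 bands outside the centromere held fewer than 1 peak per Mb, with 10 peaks in 38 Mb, or 19.9% of the length. Bands 4p15.1, 4q22.2, 4q32.2 and 4q34.2 held none. The largest of these is 4p15.1, where 7.6 Mb without a peak allow a density of up to 0.485 per Mb. Sharp changes lay side by side: 4p15.1 is followed by 4p14 with 56 peaks in 5.4 Mb, and that by 4p13 with 4 peaks in 4.7 Mb. The p arm held 5.52 peaks per Mb of sequence (4.88 to 6.22) and the q arm 3.81 (3.49 to 4.15), while the median tag count was 21 on both and strong peaks made up 26.0% and 25.6%.

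**Figure D3:**
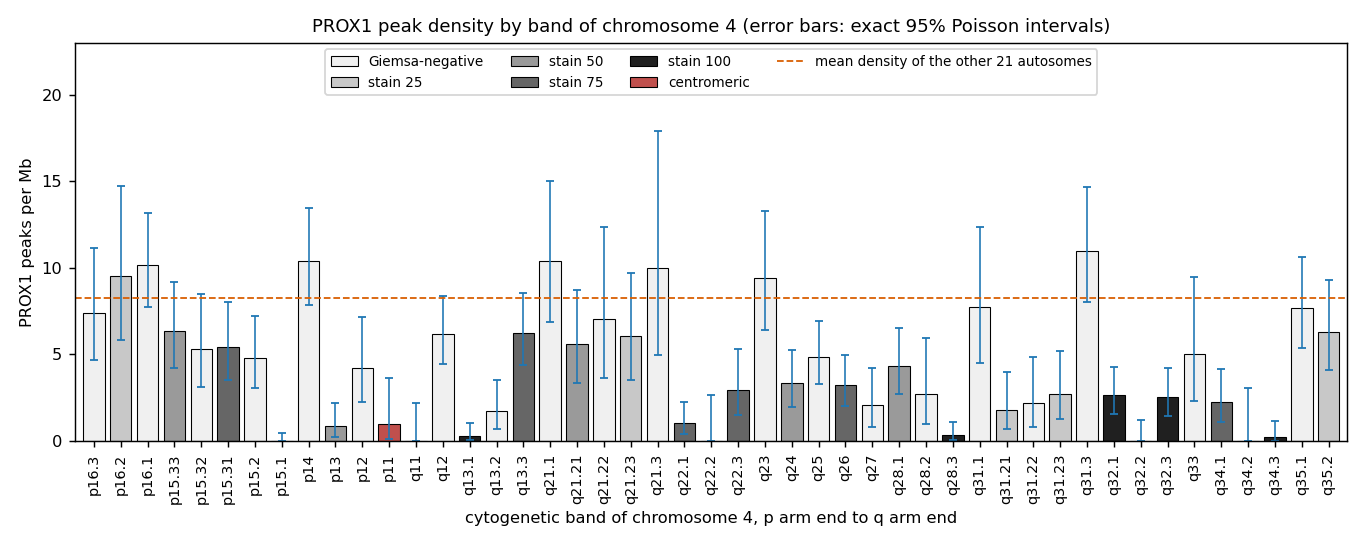
PROX1 peaks per Mb (vertical axis) in each cytogenetic band of chromosome 4 in order from the end of the p arm to the end of the q arm (horizontal axis), with bars shaded by Giemsa stain and blue exact 95% Poisson intervals. Bands from 4p16.3 to 4p16.1, 4p14, 4q21.1, 4q23 and 4q31.3 stand near or above the 8.26 peaks per Mb of the other autosomes (dashed line), and 4p15.1, 4q13.1, 4q28.3 and 4q34.3 are at or near 0.

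Landmark genes were chosen with earlier results of these data known, and their bands run from the densest to an empty one. That spread is therefore not a result. Genes are named here as landmarks of their band only, and no peak was assigned to a gene. Among lymphatic and vascular genes, FGFR3, which encodes a fibroblast growth factor receptor, lies in 4p16.3, with 23 peaks at 7.42 per Mb (4.70 to 11.1). KDR, which encodes VEGF receptor 2, lies in 4q12, with 42 peaks at 6.18 per Mb (4.45 to 8.35). VEGFC, the growth factor of lymphatic vessels, lies in 4q34.3, where 1 peak was listed in 4.8 Mb (0.208 per Mb, 0.00527 to 1.16). The band of the lymphatic growth factor was thus among those near 0 and those of the 2 receptors were not. The first is of the darkest stain and the other 2 are Giemsa-negative, so the contrast is also one of stain.

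The bands of genes of Wnt signalling and of colorectal tumours ran from 4.84 to 10.98 peaks per Mb. As these genes were chosen with earlier results known, whether such bands hold more peaks than others was not tested. SFRP2, a secreted Wnt inhibitor, and FBXW7, a ubiquitin ligase subunit often mutated in colorectal cancer, share 4q31.3, the densest band, with 45 peaks (interval 8.01 to 14.7 per Mb). LEF1, a transcription factor that binds beta-catenin, and DKK2, another secreted Wnt modulator, share 4q25 with EGF, the ligand of the EGF receptor. That band held 30 peaks at 4.84 per Mb (3.26 to 6.91), with a median of 17 tags and a highest count of 111. PROM1, which encodes the stem cell marker CD133, lies in 4p15.32 (17 peaks, 5.31 per Mb), and FAT1, an atypical cadherin, in 4q35.2 (25 peaks, 6.29 per Mb). The receptor kinase genes KIT and PDGFRA share 4q12 with KDR.

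Metabolic landmarks lay in bands of high and of low density. The ADH genes, which encode alcohol dehydrogenases, lie in 4q23 with 32 peaks. Those peaks were uneven: the windows at 99 to 100, 100 to 101 and 101 to 102 Mb held 6, 2 and 3. The window at 102 to 103 Mb, at the border with 4q24, held 22. Where the ADH genes lie within the band was not used. ALB and AFP, the albumin and alpha-fetoprotein genes of liver, lie in 4q13.3 with 38 peaks at 6.23 per Mb. PPARGC1A, a coactivator of mitochondrial genes, lies in 4p15.2, with 23 peaks at 4.79 per Mb, and that band also holds the highest peak of the chromosome. The UGT2B genes, which encode enzymes of glucuronidation, lie in 4q13.2, with 7 peaks at 1.71 per Mb (0.686 to 3.52). Both protocadherin genes, which encode adhesion proteins, lie in bands under 1 peak per Mb, PCDH7 in 4p15.1 with 0 peaks and PCDH10 in 4q28.3 with 3, while the band of the cadherin gene FAT1 held 25. EPHA5, an ephrin receptor gene, lies in 4q13.1 with 2 peaks, unlike the other receptor genes KIT and PDGFRA in 4q12 with 42. The bands of PCDH7, PCDH10 and EPHA5 are all of the darkest stain, and those of FAT1, KIT and PDGFRA are paler. Of the developmental homeobox and helix-loop-helix genes, MSX1 lies in 4p16.2 with 20 peaks and HAND2 in 4q34.1 with 10 peaks at 2.27 per Mb.

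PROX1 peak density on chromosome 4 was lower in each darker stain class, but the intervals of neighbouring classes overlapped up to stain 75. Giemsa-negative bands held 6.13 peaks per Mb (5.59 to 6.70), bands of stain 25 held 4.98 (3.93 to 6.22), of stain 50 held 3.96 (3.19 to 4.86), of stain 75 held 3.57 (2.94 to 4.30) and of stain 100 held 0.95 (0.672 to 1.30). The 40 Mb of the darkest class make up 20.9% of the chromosome and held 38 peaks, or 4.77%. Of its 6 bands, 4 lay at or below 0.366 per Mb, and 4q32.1 and 4q32.3 held 2.66 and 2.54. Some pale bands were empty too: 3 of the 23 Giemsa-negative bands (4q22.2, 4q32.2 and 4q34.2) held no peak. The other autosomes pooled held 10.8 peaks per Mb in Giemsa-negative bands and 12.7 at stain 25. At stains 50, 75 and 100 they held 9.45, 6.22 and 3.96.

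The peak number of chromosome 4 was also set beside the number given by the other autosomes' densities in each stain class. Whether banding accounts for the low number was not tested. The chromosome was chosen by its low total, so low densities and low ranks in its stain classes follow in part from that choice. Giemsa-negative bands are 40.8% of chromosome 4 and 42.6% of the other autosomes, and bands of stain 100 are 20.9% against 15.7%. At the densities that the other autosomes have in each stain class, chromosome 4 would hold 1611 peaks in its bands outside the centromere, where 795 were listed, a ratio of 0.494. At the 8.93 peaks per Mb that the other autosomes have over these classes together, the same 187.6 Mb would hold 1676, a ratio of 0.474. The deficit was present in every class: the density relative to the other autosomes was 0.566 (0.515 to 0.620) in Giemsa-negative bands, 0.391 (0.308 to 0.491) at stain 25, 0.419 (0.336 to 0.516) at stain 50, 0.574 (0.470 to 0.694) at stain 75 and 0.240 (0.169 to 0.330) at stain 100. Among autosomes with 5 Mb or more of a class, chromosome 4 was the lowest in every class except stain 75, where chromosome 15 lay lower at 3.11 peaks per Mb. The contrast between pale bands and all stained bands pooled was a ratio of 2.12 (1.83 to 2.45) on chromosome 4. The highest other autosome had 1.98, which is within that interval, and the median of the others was 1.44. Chromosomes 15, 17, 19, 20 and 22 have no band of stain 100, so this order depends in part on which classes a chromosome has. Tags did not fall with stain on chromosome 4, with medians from 20 to 22 over the 5 classes, while on the other autosomes they went from 26 in Giemsa-negative bands to 22 at stain 100.

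**Figure D4:**
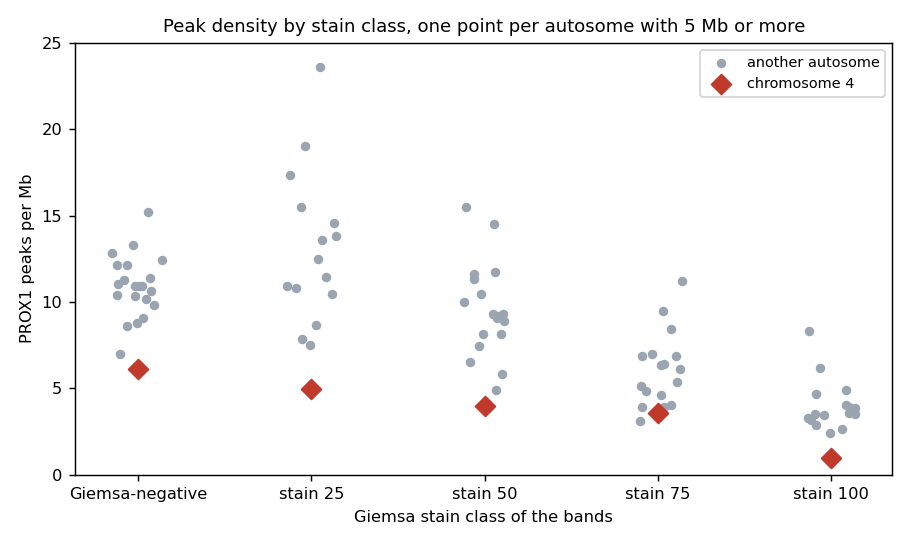
PROX1 peaks per Mb (vertical axis) in the bands of each Giemsa stain class (horizontal axis), with 1 point per autosome that has 5 Mb or more of the class and chromosome 4 as a red diamond. Chromosome 4 goes from 6.13 in Giemsa-negative bands to 0.95 at stain 100 and lies below all other points except 1 at stain 75.

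In windows of 1 Mb, chromosome 4 was empty more often and crowded less often than the other autosomes pooled. Of 192 windows, 61 held no peak (31.8%, 25.3 to 38.9), against 18.5% of 2686 windows elsewhere. Over all windows, assembly gaps included, chromosomes 13 (39.1%), 21 (38.3%) and 22 (32.0%) had larger empty shares. Among the 188 windows with most of their bases sequenced, 58 were empty, or 30.9%, and the nearest autosome was 13 with 28.1%. Windows with 20 or more peaks numbered 2 (1.04%, 0.126 to 3.71), against 10.2% elsewhere. An occupied window held a median of 4 peaks on chromosome 4 and 8 on the other autosomes, so both more empty windows and fewer peaks per occupied window were seen. Within the chromosome, 28 windows held 50% of the peaks. The longest series of occupied windows ran from 70 to 90 Mb with 130 peaks, from 99 to 116 Mb with 95 and from 0 to 12 Mb with 106.

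The densest window, 37 to 38 Mb in 4p14, held 24 peaks at 13 places, which is fewer than the densest window of any other autosome (30 on chromosome 22 to 121 on chromosome 8). Its peaks were also higher than those of the whole chromosome, with a median of 29.5 tags against 21, 10 strong peaks and 2 of the 10 highest tag counts. These lay at 37957731 to 37957891 (124 tags, fold 51.13) and 37992211 to 37992371 (122 tags, fold 61.15). Peaks crowded towards the end of that window, where 17 of the 24 lay from 37807151 onward. The next window, 102 to 103 Mb at the border of 4q23 and 4q24, held 22 peaks, all between 102126631 and 102533651, with a median of 21.5 tags. At 75 to 76 Mb in 4q13.3 there were 19 peaks, 10 of them in 2 runs. The remaining 7 of the 10 densest were 77 to 78 Mb (18 peaks), 124 to 125 (18), 154 to 155 (18), 153 to 154 (17), 186 to 187 (17), 187 to 188 (17) and 6 to 7 Mb (16). Among these 10 windows the number of strong peaks went from 2 at 154 to 155 and 187 to 188 Mb to 10 at 37 to 38 Mb, and 9 of the 18 at 124 to 125 Mb were strong.

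Long stretches without a PROX1 peak covered much of chromosome 4. Stretches with 1 Mb or more of sequence numbered 36 and added up to 94.9 Mb, or 50.7% of the sequenced length. This was the highest share of the 22 autosomes, followed by 36.7% on chromosome 18. The 5 longest were 27018591 to 35874371 (8.73 Mb of sequence, containing 4p15.1), 130763931 to 139332911 (8.57 Mb, most of 4q28.3), 175872351 to 181776751 (5.90 Mb, from 4q34.1 to 4q34.3), 62104931 to 67113691 (5.01 Mb) and 160365211 to 164888651 (4.52 Mb, containing 4q32.2). Of the 52 autosomal stretches with 3 Mb or more of sequence, 11 lay on chromosome 4, and the first 2 came next after 1 stretch on chromosome 13 (10.7 Mb) and 1 on chromosome 9 (9.06 Mb). The stretch at 49207851 to 52456891 around the centromere is 3.25 Mb long but holds 0.249 Mb of sequence. Peaks that flank the 36 stretches had a median of 19 tags, with a range of 13 to 95.

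Of the 10 peaks inside the bands under 1 per Mb, 6 had 23 tags or fewer. In 4p13 the 4 peaks had 13, 23, 14 and 14 tags, and in 4q13.1 the 2 peaks had 14 and 23. The 3 peaks of 4q28.3 had 47, 34 and 31 tags and all lay at its far edge, from 139332911 to 139383031. The peak of 4q34.3, at 181776751 to 181776811, had 54 tags at 2 inferred input tags (fold 27.07), and its nearest neighbour was 2464 kb away. In all, 23 peaks of chromosome 4 (2.89%) had no neighbour within 500 kb, the highest share of the 22 autosomes, the next being 1.69% on chromosome 14. Their median was 17 tags and 5 were strong. The highest of them, at 103761271 to 103761311 in 4q24, had 95 tags at a fold of 95.24 and stood 795 kb from its neighbour.

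Spacing between neighbouring peaks was wider on chromosome 4 by median and by mean, though short distances were present too. The median distance from one peak edge to the next was 44.1 kb on chromosome 4 and 25.4 kb on the other autosomes, where the widest single median was 36.3 kb on chromosome 19. The mean was 236 kb against 117 kb, and the ratio of mean to median, 5.36, was the fifth highest of the 22. Among peaks at the lowest inferred input the median was 55.1 kb, and 2 other autosomes had wider medians, up to 65.4 kb. Distances under 1 kb made up 14.2% (11.8 to 16.8) of the 796 spacings against 18.98% elsewhere, and distances of 1 to 10 kb made up 13.4% (11.1 to 16.0) against 18.5%. The middle class of 10 to 100 kb was similar, with 35.3% (32.0 to 38.7) against 36.5%. Distances of 100 kb to 1 Mb took 32.5% (29.3 to 35.9) against 24.6%, and those of 1 Mb or more took 4.52% (3.19 to 6.21) against 1.48%. The lowest share of each of the 2 short classes and the highest of each of the 2 long ones among the 22 autosomes were those of chromosome 4. Spacings widen wherever peaks are fewer per Mb, so these ranks are not separate from the low density.

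**Figure D5:**
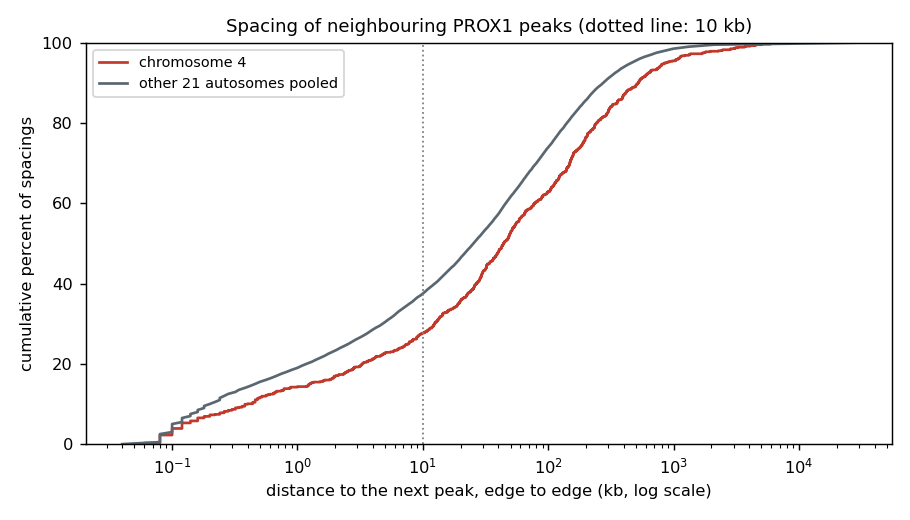
Cumulative percent of the distances between neighbouring PROX1 peaks (vertical axis) by distance in kb on a log scale (horizontal axis), for the 796 spacings of chromosome 4 (red) and those of the other 21 autosomes pooled (grey). The red curve lies to the right over most of the range, with medians of 44.1 kb against 25.4 kb, and the curves meet at both ends.

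Peaks still lay near each other on chromosome 4, though in smaller groups than elsewhere. A neighbour within 10 kb was listed for 362 of the 797 peaks, or 45.4% (41.9 to 49.0), against 57.1% on the other autosomes, of which chromosome 19 was lowest with 50.3%. This order depended on the peaks counted: among peaks at the lowest inferred input the share was 39.5%, and 2 other autosomes lay lower. Joining peaks within 10 kb gave 577 places, with 435 single peaks, 93 runs of 2, 31 of 3, 10 of 4 and 8 of 5 or more. Runs of 5 or more held 5.40% of the peaks (3.93 to 7.20) against 14.1% elsewhere. The longest run had 7 peaks, as on chromosome 9, while the longest runs of the other 20 autosomes had 8 to 41. Among single peaks the values were close, with 22.99% strong on chromosome 4 (19.1 to 27.2) and 24.1% elsewhere and medians of 20 and 22 tags. In runs of 2 to 4 the shares were 28.2% (23.3 to 33.5) and 34.4% (33.4 to 35.3), with medians of 23 and 28 tags. In runs of 5 or more they were 34.9% (21.01 to 50.9) and 38.8% (37.1 to 40.5), with 21 and 31 tags.

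Of the 8 runs of 5 or more, 3 lay in 4q13.3. The run of 7 peaks stood there at 74683851 to 74702031, with 244 tags over 18.2 kb, and its first peak had 103 tags at an inferred input of 3. The run of 5 at 75623271 to 75627931 had 112 tags and no strong peak, its highest fold being 25.06, and the run of 5 at 75769031 to 75777151 had 107 tags. The run of 6 at 106686831 to 106693491 in 4q24 had 159 tags, with 16 to 35 in each peak. The remaining runs had 5 peaks each. The one at 21078171 to 21081471 in 4p15.31 was the most compact, with 200 tags over 3.30 kb in peaks of 46, 17, 65, 20 and 52 tags. The first 3 of these were 120 and 80 bp apart. The run at 154220791 to 154225111 in 4q31.3 had 134 tags. Those at 82293951 to 82305111 in 4q21.21 and 85821271 to 85831851 in 4q21.23 had 126 and 117 tags, and a space of over 9 kb within each, so they were joined only by the distance chosen. Whether peaks this close are separate sites was not tested.

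Like most peaks of chromosome 4, of which 5.40% lay in runs of 5 or more, the highest ones stood alone or in small runs. The highest peaks were spread over both arms. The first by fold and by tags, at 25808211 to 25808271 in 4p15.2, had 186 tags and a fold of 186.46, which ranked twentieth by fold and 229th by tags among the autosomal peaks. It lay 41.0 kb from its neighbour, in the band where the longest empty stretch begins. Next by fold were 14467331 to 14467371 in 4p15.33 (123 tags, 123.31) and 184312971 to 184313211 in 4q35.1 (140 tags, 101.25). After the peak in 4q24 at 103761271 came 109574431 to 109574751 in 4q25, the widest peak of the chromosome (320 bp, 90 tags, fold 90.22), and 55474791 to 55474931 in 4q12 (86 tags, fold 86.21). The last members of the 10 by fold had folds from 74.18 to 83.21 and lay in 4q21.23, 4q28.1, 4q24 and 4q35.2. Tags and fold ordered the peaks differently where input was raised. The second by tags, at 154180671 to 154180711 in 4q31.3, had 148 tags and an inferred input of 7, so that its fold was 21.2. Likewise 124490111 to 124490151 in 4q28.1 had 133 tags at an input of 4 (fold 33.33), and 2384231 to 2384271 in 4p16.3 had 116 tags at an input of 3 (fold 38.76).

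The peaks bordering both ends of the chromosome and its centromere were single, as were most peaks of chromosome 4. Those at the ends were strong and those at the centromere were low. The first peak lay 0.723 Mb from the p arm end, at 722771 to 722811, with 55 tags and a fold of 55.14. The last lay at 188903191 to 188903351, with 33 tags, and the final 2.37 Mb of the q arm had none. On the p arm the last peak before the centromere gap, at 49207711 to 49207851, had 15 tags, and the first after it, at 52456891 to 52456931, had 17.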

How the data were processed

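ChIP DNA and input DNA of SW480R cells were sequenced, and the list of ChIP peaks against input was used. The 3 immunoprecipitations were pooled, per the series' design text. Positions are on hg18 (submitters' processing notes). Aligner, peak caller, threshold and sequencing depth: not given in the sources used here. Columns carry no names and were identified by their values, and whether starts count from 0 or 1 is unknown. Deposited counts are tags in each peak, whole and not normalized, with a minimum of 13. The deposited fold is a ratio of ChIP to input from 13.03 upward, so a peak is listed only above this level. The deposited p-value, at most 0.00099, follows the fold and was not used further.

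Peaks were placed in 1 Mb windows and bands by their centres. Chromosome lengths came from GenomeInfoDb 1.38.1, contigs from IRanges 2.36.0 and hg18 bands from circlize 0.4.16 (R 4.3.3), and statistics from Python 3.11.15 (scipy 1.17.1, numpy 2.4.6, pandas 2.3.3), with plots by matplotlib 3.10.9. Input tags were inferred as tags times 1.0025 divided by fold, a whole number within 0.02 for 94.5% of chromosome 4 peaks and all of those of 60 bp or narrower. Scripts were tested on simulated peaks. The members, bands and landmark genes were chosen with earlier results of these data known. Named were the 10 densest windows, 5 longest empty stretches, extreme bands, runs of 5 or more, the 10 peaks highest by fold and by tags, and those at the ends. Alternatives were a stricter list, merging, other distances, windows and lengths. PCR reads without molecular identifiers are not independent molecules.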

Additional observations from a re-analysis of the deposited data

How the results depend on the processing

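The density of chromosome 4 relative to the other autosomes, 0.504, was 0.468 with only the 11725 peaks that rank higher by fold (ties by tags), 0.584 with peaks within 10 kb counted once and 0.566 at the lowest inferred input; it was the lowest of the 22 autosomes under each of these. The share of windows without a peak, 31.8% at 1 Mb, was 46.2% in windows of 0.5 Mb, 18.8% in windows of 2 Mb and 43.8% with the better-ranked peaks. The share of peaks with a neighbour within 10 kb, 45.4%, was 38.1% at 5 kb, 55.8% at 20 kb, 28.1% with peaks within 1 kb merged and 35.8% among better-ranked peaks. Strong peaks, 25.7%, were 46.7% at 1.5 times the lowest fold and 8.66% at 3 times. The median of 21 tags was 19 at the lowest inferred input. Of 23 alternatives, the other 10 stayed within the 95% interval of the value reported, among them all 3 for the ratio between Giemsa-negative and stained bands. Those at the lowest input, at 1 kb merging for the density and over windows with most bases sequenced were chosen after seeing the data. With 1 library of each kind no library could be left out, and only listed peaks, not the level between them, could be assessed.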
